A study of Saccharomyces cerevisiae with 10 samples.

Results

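The comparison set 8 h of drying against 1 h in commercial baker's yeast (Saccharomyces cerevisiae). It rests on 4 of the 10 arrays of the series, 2 from cells dried for 8 h and 2 from cells dried for 1 h, taken by the time in the sample titles. The study followed compressed yeast from fed-batch culture, spread on an aluminium tray and dried in an oven with air blown at 37 degrees, with a pair of independently made arrays at each of 5 drying times (0, 1, 2, 4 or 8 h). All groups came from this 1 kind of yeast and culture. No array came from cells held warm, or held as long, without drying, so heat, time in the oven and water loss cannot be told apart. The question was which changes of the first hour fade by 8 h and which stay, and for that the 2 arrays at 0 h served as the starting point. Poly(A)-enriched RNA was hybridised to the Affymetrix Yeast Genome S98 array. A signal below is the intensity divided by the median of its own array, so it measures a share of the hybridised RNA and cannot show a change in the amount of RNA per cell.

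When yeast is warmed or loses water, proteins unfold, and cells respond by making chaperones. Heat shock factor drives the chaperone genes of the Hsp70 and Hsp90 families, Hsp104 pulls aggregated proteins apart, and the proteasome degrades what cannot be refolded. In cultures moved to a warmer temperature the heat shock response is known to be transient. General stress genes under Msn2 and Msn4, trehalose and small hydrophilic proteins are associated with survival of dry yeast.

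The 8 h arrays were unequal. Replicate 1 at 8 h was the dimmest of the series, with a median intensity of 23.6, and replicate 2 at 8 h the brightest, at 115.4, while the 1 h arrays had medians of 63.5 and 67.0. Across genes, the replicates correlated at 0.942 at 8 h and 0.98 at 1 h, and the SD of their log2 difference was 0.746 at 8 h and 0.428 at 1 h. On the actin control probe sets the 3' end over the 5' end, a ratio that rises with RNA breakdown, gave 6.44 and 2.70 at 8 h and 3.90 and 2.64 at 1 h. Markers of other kinds of yeast cell were mostly dim, and 0 of 12 haploid and mating genes and 0 of 9 sporulation genes passed the test. The brightest were MFA1 at 3.76 and 2.36 times the median at 8 h and 9.6 and 4.15 at 1 h, and SPS100 at 63.0 and 45.8 at 8 h and 60.2 and 56.2 at 1 h. MFA2 and IME1 were the others above the median on all 4 arrays, between 1.22 and 2.32.

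At 8 h against 1 h the genes that fell included 10 of 27 cytosolic chaperone genes and smaller shares of the proteasome, amino acid permease and gluconeogenesis lists, and most of those that rose were tRNA genes. Of 5365 genes tested with limma, 55 had risen (1.03% of all tested) and 130 had fallen (2.42% of all tested) at an adjusted p under 0.05. All 130 that fell were protein-coding. Of the 55 that rose, 39 were tRNA genes, 3 small nucleolar RNA genes, 2 small nuclear RNA genes and 11 protein-coding. In each of these 185 genes the 8 h arrays lay wholly above or wholly below the 1 h arrays. With 2 arrays at either time this largely follows from passing the test, so it adds no support, and it was not counted over all genes. The median over all genes was -0.06 log2 units, and 976 genes had an unadjusted p under 0.05, of which 315 were higher and 661 lower. With scaling to the 75th percentile, which moved the median of all genes to 0.09, 78 genes passed as higher and 93 as lower, so that the higher share of calls was 45.6% in place of 29.7%.

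**Figure D1:**
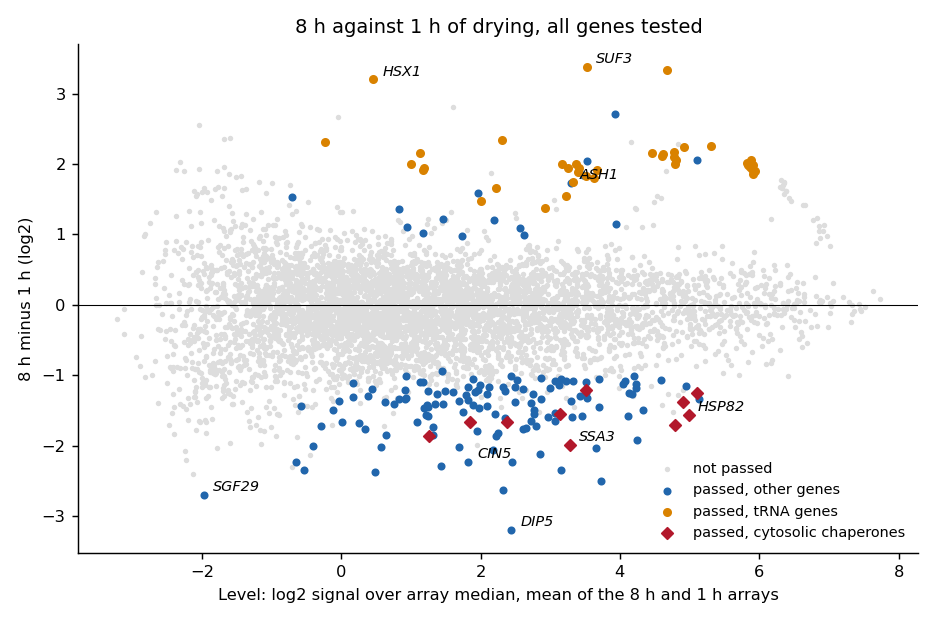
Each point is 1 of 5365 genes, with its level (mean log2 signal over the array median on the 8 h and 1 h arrays) against its log2 difference of 8 h minus 1 h. The 39 tRNA genes that passed all lie above 0 and the 10 cytosolic chaperone genes that passed all lie below 0, with SUF3 at 3.38 and DIP5 at -3.19 as the extremes.

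The counts depended on single arrays. With replicate 1 at 8 h left out, 15 genes passed as higher and 47 as lower, and without replicate 2 at 8 h the counts were 110 and 364. Without replicate 1 at 1 h they were 14 and 18, and without replicate 2 at 1 h they were 6 and 10. A total of 15 genes passed whichever of the 4 arrays was left out. Those that fell were ATG1, BRR6, CIN5, DIP5, HRP1, IRC23, MPO1, OPI10, SSA3 and UGA2, and those that rose were ASH1, HSX1, SUF3, SUF5 and YNCE0008C. Every other call was lost without at least 1 of these arrays, and none turned in sign.

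Chaperones of the cytosol had the largest downward median of the 38 gene lists. Of 27 members of the Hsp70, Hsp90 and disaggregase group, 10 fell (37%, against 2.42% of all genes), 0 rose and 17 did not pass. Of the 27 differences 26 were below 0, against 2946 of 5365 over all genes. With scaling to the 75th percentile 5 of the 27 were above 0 and 9 passed as lower. The number lower was 16 with quantile normalization, 14 with loess and 0 without scaling. The list's median was -0.86 at 8 h minus 1 h, against -0.06 for all genes, while at 1 h minus 0 h it had been 1.09. Both comparisons use the 1 h arrays, so their values are set side by side without a test. Without replicate 1 at 8 h 4 of the 27 passed as lower, without replicate 1 at 1 h 2, and without replicate 2 at 1 h 1, but the median stayed between -1.14 and -0.67. Near-identical Hsp70 and Hsp90 genes may share probe signal.

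SSA3, a stress-inducible Hsp70, had signals of 5.15 and 4.63 times the array median at 8 h and of 20.2 and 18.4 at 1 h. The groups were far apart, and the difference was -1.98 ± 0.22 log2 units (SE, with 2 arrays at either time, adjusted p = 0.000363), or 3.95-fold lower. At 0 h SSA3 had read 2.24 and 2.35, so its 8 h level was still above that of fresh cells, by 1.09 log2 units (adjusted p = 0.0346). SSA4, the other inducible Hsp70, had signals of 17.6 and 28.2 at 8 h, against 55.2 and 50.7 at 1 h. At 0 h it had been at 3.4 and 2.61. It fell by 1.25 ± 0.31 log2 units (SE, adjusted p = 0.037) yet remained 2.91 above 0 h (adjusted p = 0.000247).

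Hsp90 and its helpers followed with similar sizes. HSP82, the inducible Hsp90, had signals of 14.8 and 23.0 at 8 h and of 61.2 and 48.6 at 1 h, without overlap. It fell by 1.56 ± 0.33 log2 units (SE, adjusted p = 0.018). YDJ1, an Hsp40 partner of Hsp70, fell by 1.71, the Hsp110 nucleotide exchange factors SSE1 and SSE2 by 1.55 and 1.21, and the Hsp90 cochaperones HCH1 and CPR6 by 1.67 and 1.38. APJ1, another Hsp40, and CUR1, a sorting factor for misfolded proteins, had differences of -1.66 and -1.86 and also passed. HSC82 and SSA1 did not pass: HSC82, the constitutive Hsp90, had signals of 74.6 and 53.5 at 8 h against 98.2 and 98.2 at 1 h (adjusted p = 0.429). SSA1, a constitutive Hsp70, had 300 and 110 at 8 h against 187 and 185 at 1 h, and its replicates at 8 h lay on both sides of the 1 h values.

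Other compartments showed fewer calls. Of 13 mitochondrial chaperone genes, HSP78 (-1.12, adjusted p = 0.0294), the mitochondrial disaggregase, and SSC1 (-1.16, adjusted p = 0.0301), the mitochondrial Hsp70, fell and 0 rose. These are 15.4% of that list, against 2.42% of all genes. In the endoplasmic reticulum list 1 of 21 genes fell (4.76%), KAR2, the Hsp70 of that compartment. KAR2 had signals of 18.6 and 26.4 at 8 h and of 56.3 and 55.5 at 1 h. Ribosome-bound chaperones and the chaperonin CCT, which fold newly made proteins, had 0 of 19 genes passed in either direction and a median of 0.01. In that list 0 genes had also passed at 1 h against 0 h.

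The proteasome list had a downward median with few single calls. Of 37 genes, 4 fell (10.8%, against 2.42% of all genes) and 0 rose. The median was -0.61, and 35 of 37 differences were below 0. With scaling to the 75th percentile 4 of the 37 were above 0 and 3 passed as lower. At 1 h minus 0 h the list's median had been 0.48. RPN13, a ubiquitin receptor of the proteasome, had signals of 3.64 and 4.45 at 8 h and of 9.59 and 8.93 at 1 h (-1.20 ± 0.24, SE, adjusted p = 0.0129). The others that fell were RPT4, a base ATPase, RPN11, the lid deubiquitinase, and BLM10, a proteasome activator, whose second probe set had the opposite sign without passing. RPN4, the activator of proteasome genes, had 9.53 and 10.5 at 8 h against 21.5 and 16.7 at 1 h, and missed the threshold (adjusted p = 0.0589). The list's calls rested on both 1 h arrays: without either of them 0 of 37 passed, without replicate 1 at 8 h 2 fell and without replicate 2 at 8 h 13 fell, with the median between -0.81 and -0.27.

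**Figure D2:**
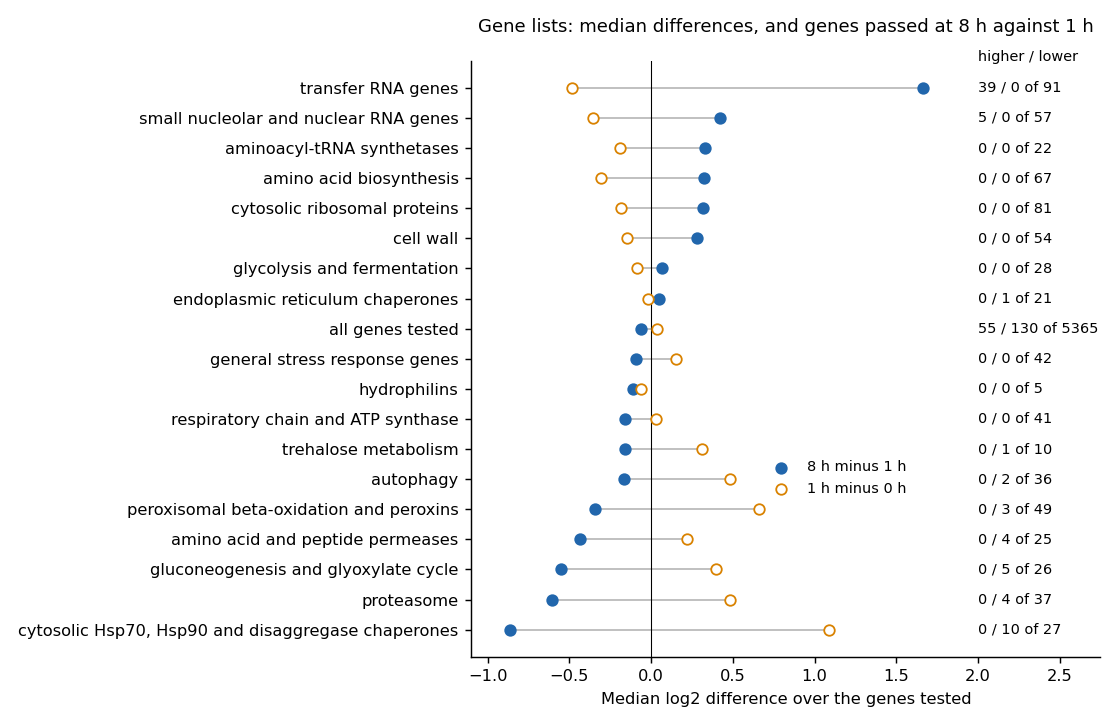
Filled circles give each list's median log2 difference of 8 h minus 1 h and open circles that of 1 h minus 0 h, with the number of genes passed as higher and as lower at 8 h against 1 h at the right. The cytosolic chaperones lie at -0.86 after 1.09 in the first hour and the tRNA genes at 1.66 after -0.48, and the medians use the same 1 h arrays.

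Amino acid permeases held the largest single fall. DIP5, the glutamate and aspartate permease, had signals of 1.41 and 2.29 at 8 h and of 14.1 and 19.1 at 1 h. Its difference was -3.19 ± 0.33 log2 units (SE, adjusted p = 0.000251), or 9.13-fold lower, and it had been at 20.4 and 16.4 at 0 h. DIP5 thus fell after the first hour and lay below fresh cells at 8 h (-3.35, adjusted p = 0.000189). AGP1 and GNP1, permeases of broad range and of glutamine, had instead risen at 1 h. AGP1 had 1.92 and 3.12 at 8 h against 7.94 and 10 at 1 h, and GNP1 had 0.932 and 1.85 at 8 h against 5.31 and 4.24 at 1 h. GAP1, the general amino acid permease, also fell (-1.27, adjusted p = 0.0157). In all, 4 of 25 permease genes fell (16%, against 2.42% of all genes) and 0 rose, with a median of -0.44. Leaving out replicate 1 at 8 h or replicate 1 at 1 h, 2 of the 25 fell, and without replicate 2 at 1 h 1 fell.

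Genes for alternative carbon and nitrogen sources fell in part. Of 26 genes of gluconeogenesis and the glyoxylate cycle, 5 fell (19.2%, against 2.42% of all genes) and 0 rose. The list's median was -0.55. SIP4, an activator of gluconeogenic genes, had signals of 1.38 and 1.08 at 8 h and of 5.67 and 6.27 at 1 h, and its difference was -2.29 ± 0.35 log2 units (SE, adjusted p = 0.00303). The others were ICL2, a mitochondrial 2-methylisocitrate lyase, SFC1, the succinate-fumarate carrier, FBP26, a fructose-2,6-bisphosphatase, and UBC8, a ubiquitin-conjugating enzyme that acts on Fbp1. The gluconeogenic enzymes FBP1 (-0.52, adjusted p = 0.407) and PCK1 (-0.27, adjusted p = 0.809) did not pass. With scaling to the 75th percentile 1 of the 26 fell and 1 rose, with quantile normalization 10 fell and 1 rose, and with the arrays left out singly fewer passed: without replicate 2 at 1 h 0, without replicate 1 at 1 h 1 and without replicate 1 at 8 h 2. UGA2, of the pathway that breaks down gamma-aminobutyrate, had 1.86 and 3.44 at 8 h against 11.9 and 11.7 at 1 h. It was 4.67-fold lower (adjusted p = 0.000792). In the list of genes under nitrogen catabolite repression 3 of 29 fell (10.3%) and 0 rose, with a median of -0.02. They were UGA2, GDH2, the NAD-dependent glutamate dehydrogenase (-1.76, adjusted p = 0.00685), and GAP1, which is also counted among the permeases.

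The joint list of peroxisomal beta-oxidation genes and peroxins had 3 of 49 genes fallen (6.12%, against 2.42% of all genes) and 0 risen. Its median was -0.34 after 0.66 in the first hour. PXA2, which with Pxa1 imports fatty acids into the peroxisome, had signals of 2.1 and 1.87 at 8 h and of 5.93 and 5.41 at 1 h (-1.52 ± 0.25, SE, adjusted p = 0.00392). FAA2, a fatty acyl-CoA synthetase, and ECI1, an enoyl-CoA isomerase, were the other two. Without either 1 h array 0 of the 49 passed, and without replicate 1 at 8 h 1. ATG1, the kinase that starts autophagy, had 0.835 and 0.653 at 8 h against 3.12 and 2.86 at 1 h, a 4.05-fold fall (adjusted p = 0.00194). ATG39, a receptor for autophagy of the nuclear envelope, was the other of 36 autophagy genes that fell (5.56%, against 2.42% of all genes).

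Of the general stress, hydrophilin and trehalose genes, which are often tied to dry survival, only 1 passed. At 1 h against 0 h, 3 of 42 general stress genes, 0 of 5 hydrophilin genes and 1 of 10 trehalose genes had risen. Over all genes the share was 2.22%. At 8 h against 1 h 0 of the 42 general stress genes passed in either direction (median -0.09), and 0 of the 5 in the hydrophilin list (median -0.11). With scaling to the 75th percentile these medians were 0.06 and 0.04, so neither has a settled sign, and with quantile normalization or loess 4 of the 42 general stress genes fell. HSP12, a membrane-associated hydrophilin, had signals of 279 and 91.1 at 8 h and of 177 and 163 at 1 h, so its replicates at 8 h spanned the 1 h values. Its difference of -0.09 had a 95% interval of -1.14 to 0.96, which leaves room for a change of either sign. TPS1, the trehalose-6-phosphate synthase, had 32.6 and 24 at 8 h against 27.6 and 22.2 at 1 h, and CTT1, the cytosolic catalase, had 27.5 and 25.1 at 8 h against 25.3 and 20.8 at 1 h. Of 10 trehalose genes 1 fell (10%, against 2.42% of all genes). It was ATH1, the acid trehalase, with 4.21 and 6.22 at 8 h and 10.8 and 10.2 at 1 h (adjusted p = 0.0399).

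Gene lists for making protein gave 1 call and medians of both signs. Of 81 cytosolic ribosomal protein genes 0 passed in either direction, with a median of 0.32 and 74 differences above 0. That median was -0.00 if the arrays were not scaled, where the median of all genes was -0.38. It was 0.47 with scaling to the 75th percentile, 0.28 with quantile normalization and 0.31 with loess. With either of the last 2 settings 1 of the 81 rose. The 67 amino acid biosynthesis genes had a median of 0.33 and the 22 aminoacyl-tRNA synthetase genes one of 0.33, with 0 passed in each list. Without scaling those medians were 0.00 and 0.01, against the same -0.38 of all genes, and with scaling to the 75th percentile 2 of the 67 rose. Mitochondrial ribosomal proteins (median -0.17, 73 genes), ribosome biogenesis (-0.07, 124 genes) and RNA polymerases I and III (-0.06, 36 genes) had 0 passed in either direction. The 34 translation factors had a median of -0.12, with 1 fall (2.94%, against 2.42% of all genes) and 0 rises. That median was 0.02 with scaling to the 75th percentile. The fall was SUI3, the beta subunit of eIF2, with 2.21 and 2.52 at 8 h and 6.44 and 6.6 at 1 h (adjusted p = 0.00303). The lists for glycolysis, the respiratory chain, ergosterol synthesis, the cell cycle, oxidative stress defence and the cell wall (54 genes) had 0 passed in either direction, although cell wall genes outside that list did pass. With scaling to the 75th percentile 2 of the 54 rose, as did 1 gene each of the respiratory chain and cell cycle lists, and with quantile normalization 2 respiratory chain genes and 1 glycolysis gene fell.

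The largest single falls outside these lists went to genes of varied roles. CIN5, a stress-related bZIP factor, had signals of 1.87 and 1.43 at 8 h and of 8.3 and 7.09 at 1 h, and was 4.69-fold lower (adjusted p = 0.000251). MPO1, which oxidises phytosphingosine-derived fatty acids, had 2.78 and 5.68 at 8 h against 19.9 and 20.3 at 1 h. ROQ1, which redirects the ubiquitin ligase Ubr1, had 5.26 and 5.85 at 8 h against 28.1 and 35.1 at 1 h, and YAR1, a chaperone of ribosomal protein Rps3, had 2.89 and 4.21 against 14.8 and 15.4. These 4 had all been among the genes that rose in the first hour. IRC23 had 1.79 and 2.28 at 8 h against 10.9 and 14.3 at 1 h (-2.63 ± 0.28, SE, adjusted p = 0.000251). KEG1, needed for cell wall beta-glucan, SNT309, a splicing factor, and HAL1, a salt tolerance gene, had differences of -2.37, -2.34 and -2.23 on dim probe sets. SGF29, a subunit of the SAGA complex, was at the floor of 0.1 on both 8 h arrays against 0.619 and 0.675 at 1 h, which makes it at least 6.46-fold lower (adjusted p = 0.0142).

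The fate of the early changes was then followed gene by gene. At 1 h against 0 h, 119 genes had risen (2.22% of all tested) and 21 had fallen (0.391% of all tested). Of the 119 rises, 59 passed as lower at 8 h than at 1 h, 0 passed as higher still, 9 did not pass but were still above 0 h at 8 h, and 51 passed neither test. All 119 had a lower mean at 8 h than at 1 h. The 1 h arrays enter both comparisons, so a gene that read high by chance on them can be counted in both, and no test is given for this sorting. Without replicate 1 at 1 h there were 18 early rises, 5 of them lower at 8 h and 5 still up, and without replicate 2 at 1 h there were 40, with 6 lower and 8 still up. With replicate 1 at 8 h left out, 19 of 151 early rises were lower and without replicate 2 at 8 h 91 of 149. Leaving out replicate 1 at 0 h, 28 of 46 were lower and without replicate 2 at 0 h 15 of 28.

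The 59 genes that came down had a median above the 0 h mean that was 1.63 log2 units after 1 h of drying, 0.76 after 2 h, 0.82 after 4 h and 0.14 after 8 h. At 2 h, 51 of the 59 had both arrays below both 1 h arrays, and 57 did at 4 h. Among the 51 early rises that passed neither test these counts were 30 and 27, and among the 9 still up they were 4 and 2. The genes of all these classes were chosen by high signals on the 1 h arrays, and the counts were not made over all genes. They therefore have no background share and do not test when the genes came down. At 8 h against 0 h, 27 genes had risen (0.503% of all tested) and 24 had fallen (0.447%), or 0.951% in either direction. SSA3, SSA4 and YKL107W were the 3 of the 59 still above 0 h by that test. YKL107W had 3.51 and 4.5 at 8 h against 13.9 and 9.73 at 1 h. Its signals in fresh cells were 1.45 and 0.927.

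**Figure D3:**
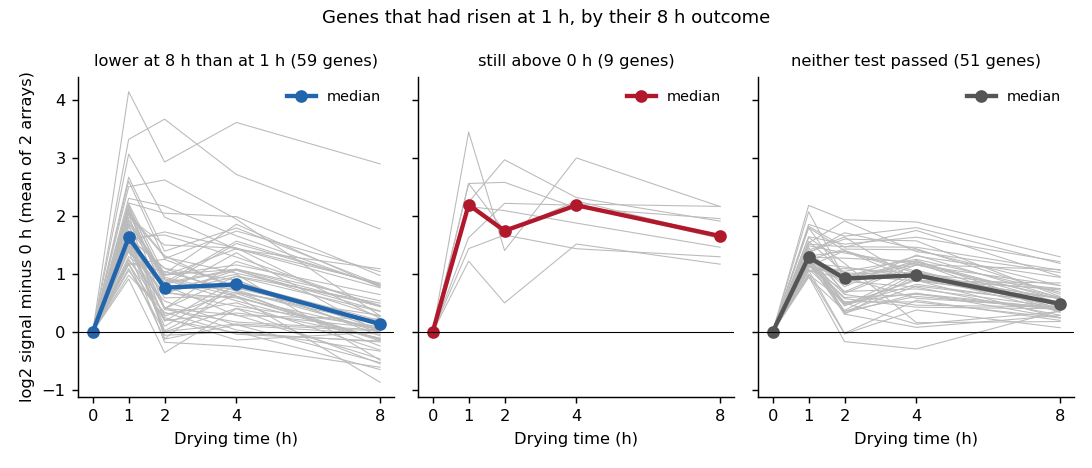
Grey lines are single genes that had risen at 1 h, as log2 signal minus the 0 h mean over drying time (mean of 2 arrays), split by outcome at 8 h, and thick lines are medians. The median of the 59 genes lower at 8 h goes to 0.14 at 8 h, that of the 9 still above 0 h to 1.66 and that of the 51 others to 0.48.

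The 9 genes that did not pass as lower and were still above 0 h at 8 h were HXT1, ARO9, STL1, ALD3, BTN2, HSP104, PEX9, SWR1 and PRM10. Not passing as lower does not show that a gene held its 1 h level. HSP104, the cytosolic disaggregase, had signals of 20.9 and 16.1 at 8 h and of 37.8 and 23.6 at 1 h. Its 8 h values lay below both 1 h values, but the difference of -0.70 did not pass (adjusted p = 0.232, 95% interval -1.36 to -0.05), and it stood 1.46 above 0 h (adjusted p = 0.0367). BTN2, which sorts misfolded proteins into deposits, had 20.9 and 20.1 at 8 h against 33.8 and 26.3 at 1 h, and was 1.66 above 0 h (adjusted p = 0.0211).

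Transport and metabolic genes made up much of the rest. STL1, the glycerol importer, had 11.5 and 13.2 at 8 h against 14.5 and 18.1 at 1 h, with a 95% interval of the difference of -1.27 to 0.48. ARO9, an aromatic aminotransferase, had 9.13 and 7.68 at 8 h against 13.8 and 11.8 at 1 h. HXT1, a low-affinity glucose transporter, had 8.58 and 15.8 at 8 h against 27.8 and 29.1 at 1 h. Its fall of -1.29 (95% interval -2.10 to -0.47) was no smaller than that of SSA4 (-1.25), which passed. The adjusted p of HXT1, 0.0796, was the nearest of the 9 to the threshold. ALD3, an aldehyde dehydrogenase, overlapped between the times, with 17.2 and 10.2 at 8 h and 22.0 and 12.6 at 1 h. PEX9, a peroxisomal import receptor, had 2.06 and 1.58 at 8 h and 2.05 and 1.62 at 1 h, a difference of -0.02 with a 95% interval of -0.64 to 0.61. SWR1, the ATPase that deposits histone H2A.Z, and PRM10 had differences of -0.14 and -0.05.

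**Figure D4:**
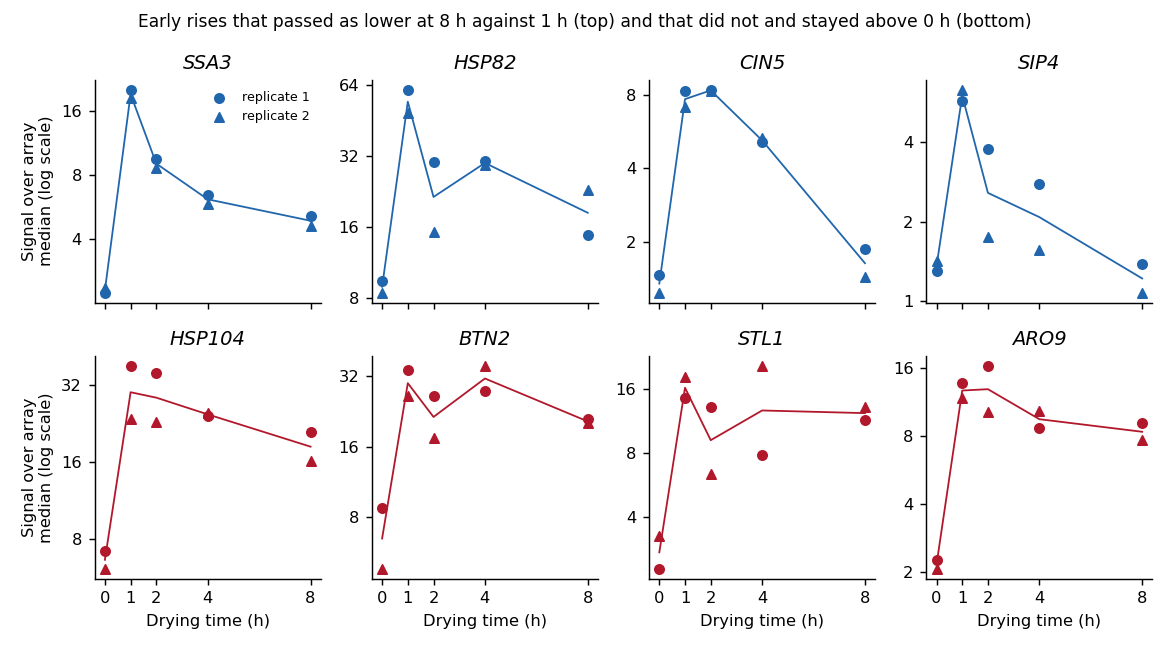
Signal over the array median (log scale) on every array against drying time for 4 early rises that passed as lower at 8 h than at 1 h (top) and 4 that did not pass and were still above 0 h (bottom), with lines through the means. CIN5 lies at 1.87 and 1.43 at 8 h, near its 0 h values of 1.47 and 1.24, while ARO9 stays at 9.13 and 7.68 against 2.25 and 2.07 at 0 h.

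Early changes were also taken from the 2 h samples. At 2 h against 0 h, 44 genes had risen (0.82% of all tested) and 37 had fallen (0.69%), or 1.51% in either direction, and the signals of these 4 arrays do not enter the 8 h or 1 h means. They do enter the estimate of spread that all tests share, and 33 of the 44 rises had also passed at 1 h. Of the 44 genes up at 2 h, 11 fell at 8 h against 1 h, which is 25% against 2.42% of all genes, and 5 rose, which is 11.4% against 1.03%. The 11 were CIN5, ECI1, FAA2, FMP48, HRP1, PXA2, RGS2, SSA3, SSA4, YKL107W and YOR302W, all protein-coding. The 5 were the tRNA genes CDC65, HSX1, SUF3 and SUF5 and the small nucleolar RNA gene SNR38. Of the 37 genes down at 2 h, DIP5 and TLD1 were among the falls at 8 h against 1 h (5.41%) and 0 among the rises.

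Of the 21 early falls, 1 passed as higher again at 8 h, 10 did not pass and were still below 0 h, and 10 passed neither test. The 1 was FRE7, a metal reductase, with 2.7 and 2.93 at 8 h against 1.22 and 1.41 at 1 h. Fresh cells had 3.64 and 2.62. The 10 still below 0 h were 8 tRNA genes, HXT8 of the hexose transporter family and SOK2, a regulator of filamentous growth. At a tolerance of 0.5 log2 units on every array, the 9 tRNA genes lower at 1 h formed 5 groups of like signal. The 8 are therefore not all separate readings. Of these 8, YNCB0015W had 3.0 and 3.3 at 8 h against 6.69 and 4.33 at 1 h, below the 16.6 and 13.3 of fresh cells. The 10 left undecided all had a higher mean at 8 h than at 1 h, and POR2, a mitochondrial porin, was nearest to the threshold (1.20, adjusted p = 0.0515).

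Of the 130 falls, 59 were the early rises already described and 71 had not passed at 1 h against 0 h, which does not show that they were unchanged then. SSC1, for one, stood 0.63 log2 units above 0 h at 1 h without passing. At 8 h against 0 h, 122 of the 130 did not pass in either direction. The 5 that lay below 0 h at 8 h were DIP5, IRC23, SGF29, TLD1 and YPT52, an endosomal Rab protein. YPT52 had 6.11 and 5.33 at 8 h against 19.6 and 15.1 at 1 h, and fresh cells had 14.7 and 12.1. Of the 55 rises, 54 had not passed at 1 h against 0 h in either direction and 14 lay above 0 h at 8 h. These 14 were 10 tRNA genes, SNR38, SNR71, SNR76 and ASH1.

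The tRNA genes carried the rise. Of 91 tRNA genes tested 39 rose, or 42.9%, and 0 fell, against 0.211% risen and 2.5% fallen among protein-coding genes. The number that rose was 40 with scaling to the 75th percentile, 62 with quantile normalization, 61 with loess and 0 without scaling. The median difference of the 91 was 1.66 at 8 h minus 1 h, after -0.48 at 1 h minus 0 h. Of the 91 differences 82 were above 0, against 2419 of 5365 over all genes. For 77 of the 91 both 8 h arrays lay above both 1 h arrays, which was not counted over all genes. Against 0 h the median over the 91 genes was 1.14 after 2 h, 1.11 after 4 h and 1.24 after 8 h. Many copies share their sequence: at a tolerance of 0.5 log2 units on every array the 91 genes formed 43 groups of like signal, and the 39 that rose fell into 19 of them. SUF3, a tRNA gene known for frameshift suppressor mutations, had signals of 46.1 and 29.8 at 8 h and of 3.4 and 3.75 at 1 h. Its difference was 3.38 ± 0.27 log2 units (SE, adjusted p = 1.97e-05), or 10.4-fold.

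SUF5, another suppressor tRNA gene, had 140 and 47.3 at 8 h against 8.12 and 8.01 at 1 h, and HSX1, an arginine tRNA gene, had 6.77 and 2.58 at 8 h against 0.507 and 0.406 at 1 h. CDC65, a glutamine tRNA gene, had 20.1 and 6.25 at 8 h against 2.63 and 1.85 at 1 h, and TRT2, a threonine tRNA gene, had 2.91 and 1.25 against 0.569 and 0.257. In each of these the dim array, replicate 1 at 8 h, read higher than replicate 2. The remaining named tRNA genes, YNCD0028W, YNCK0019W, YNCM0035C, YNCM0018C, YNCK0017W and YNCK0008W, rose by 2.15 to 2.26 log2 units.

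The size of this rise moved with 1 array. Over the 39 genes that rose, replicate 1 at 8 h exceeded replicate 2 by a median of 1.27 log2 units, where the median over all genes was -0.11. The list's median above the 1 h mean was 2.44 on replicate 1 and 0.83 on replicate 2. Without replicate 1 at 8 h 12 tRNA genes rose, without replicate 2 at 8 h 76 rose and 1 fell, without replicate 1 at 1 h 12 rose and without replicate 2 at 1 h 4 rose. Transfer RNA lacks a poly(A) tail and the RNA was poly(A)-enriched. The 10 control probe sets for ribosomal RNA, which has no such tail either, had a median difference of 0.02, with single values from -1.41 to 0.38. Their median above the 1 h mean was 0.38 on replicate 1 at 8 h and -0.35 on replicate 2. The part of carry-over through the enrichment, and of the dim array, in the rise of tRNA signals was not tested.

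**Figure D5:**
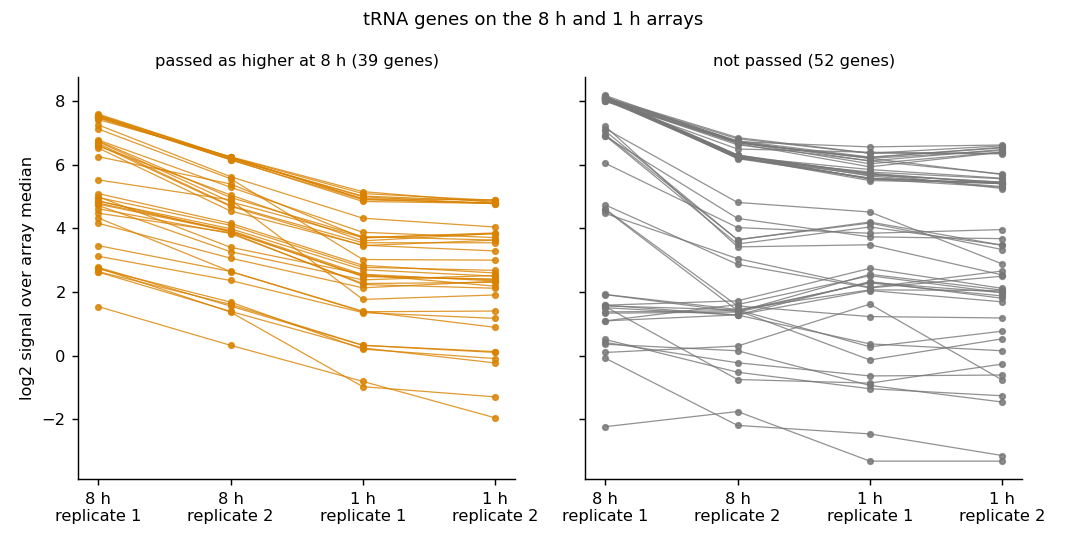
Each line is 1 of 91 tRNA genes, as log2 signal over the array median on the 2 arrays at 8 h and the 2 at 1 h, for the 39 genes that passed as higher at 8 h and the 52 that did not. Both 8 h arrays lie above both 1 h arrays for 77 of the 91 genes (not counted over all genes), and replicate 1 at 8 h is the highest for most. Copies of like signal are drawn as separate lines.

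Small nuclear and nucleolar RNA genes gave 5 rises (8.77%, against 1.03% of all genes) and 0 falls among 57 tested, with a median of 0.42. SNR7-L, the long form of the U5 spliceosomal RNA, had 50.6 and 30.1 at 8 h against 7.13 and 5.0 at 1 h, and SNR14, the U4 RNA, had 86.7 and 57.2 against 21.2 and 13.6. SNR71, SNR76 and SNR38, which guide methylation of ribosomal RNA, had differences of 2.04, 1.84 and 1.58. For these 3 the 8 h replicates were close, as in SNR71 with 23.4 and 23.2 at 8 h and 5.67 and 5.66 at 1 h. Leaving out replicate 1 at 8 h, or either 1 h array, left 0 of these 5 calls.

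Of the protein-coding genes 11 rose. ASH1, the daughter-cell repressor of mating type switching, had signals of 19.3 and 16.6 at 8 h and of 4.83 and 6.02 at 1 h. Its difference was 1.73 ± 0.23 log2 units (SE, adjusted p = 0.00134), or 3.33-fold, and it was also above its 0 h level (1.29, adjusted p = 0.0149). MYO4, the myosin that carries ASH1 mRNA into the bud, had 4.49 and 3.9 at 8 h against 2.3 and 1.4 at 1 h (1.22, adjusted p = 0.0241). GPD2, a glycerol-3-phosphate dehydrogenase, had 3.48 and 2.3 at 8 h against 1.2 and 1.02 at 1 h (1.36, adjusted p = 0.0285). GUF1, a mitochondrial translation GTPase, differed by 1.53, the cell wall proteins NCW2 and HPF1 by 1.20 and 1.16, and FRE7 by 1.10. ISR1, a protein kinase, STP22, an ESCRT-I subunit, NIS1, a bud neck protein, and GOS1, a Golgi SNARE, differed by 0.97 to 1.10. Fitted without the RNA genes, 10 protein-coding genes rose and 126 fell.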

How the data were processed

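Per the labels, RNA was extracted with hot phenol, enriched for poly(A) RNA, labelled as biotinylated cRNA and hybridised to Affymetrix Yeast Genome S98 arrays. The authors deposited 1 linear intensity per probe set and array, made with GCOS per the submitters' processing notes. The version, the summary method and any scaling target are not given in the sources used here, and detection calls were not used. Of 9335 probe sets, 60 were controls. Of the others, 6504 named 1 gene, 328 several and 2443 none in the platform annotation, and only those with 1 gene were used. All 5656 genes matched RefSeq R64 symbols.

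Signals were scaled to the array median of all probe sets other than controls, values under 0.1 were set to 0.1, and log2 was taken. Probe sets with a mean signal under 0.2 were left out, and the brightest probe set stood for each gene, which left 5365 genes. A model of 5 group means over 10 arrays was fitted with limma 3.58.1 (R 4.3.3) with an intensity trend. Tests were two-sided with Benjamini-Hochberg adjustment over all genes at 0.05, and SEs and 95% intervals come from that fit. Its code was tested on simulated data. The 2 arrays per time, which limit the precision, are called independent duplicates in the labels. Whether replicate numbers pair the arrays was checked, and the fit left the number out.

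The comparison, its members and the gene lists were chosen with earlier results of these data known. Named genes were the 12 largest rises and falls at 8 h against 1 h (at least 2-fold, without overlap), the 8 largest early rises and 4 largest early falls, the 2 members of each list with the smallest p, and a fixed set of known stress genes. Other genes named as members of a count or beside one, among them the protein-coding rises, FBP1, PCK1 and POR2, were chosen after their values were seen. Promoter and probe sequences were not used here. Alternatives changed the scaling, floor, filter, trend, arrays fitted, weights and probe set rule, and left out arrays 1 at a time.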

Additional observations from a re-analysis of the deposited data

Results flagged for a closer look

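Probe sets that name no gene in the platform annotation took no part in the comparison. Fitted in the same way, 1382 of them passed the filter, and at 8 h against 1 h 7 passed as higher and 4 as lower. What they measure was not tested.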

How the results depend on the processing

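No call at 8 h against 1 h turned in sign under any alternative, but the counts moved. The 55 rises were 94 with quantile normalization, 94 with cyclic loess, 90 with the replicate number as a block, 35 with no filter, 34 with only the 1 h and 8 h arrays in the fit, 20 without the variance trend, 10 with a floor of 0.25, 10 with protein-coding genes alone (an alternative chosen after seeing the data) and 0 without scaling. The 130 falls were 86 with only the 1 h and 8 h arrays, 75 with no filter, 41 without the trend, 25 with a floor of 0.25 and 0 without scaling, and 163 with the replicate block. The labels do not say that replicate numbers pair the arrays. Differences between replicates correlated at -0.06 to 0.18 between times, above 0.1 in 4 of 10 pairs of times and at 0.00 for 1 h with 8 h. The actin 3' to 5' ratio was higher in replicate 1 at all 5 times, though at 4 h the values were 3.15 and 3.10. The same ratio for the TFIID control was higher in replicate 1 except at 4 h, where it was 4.75 against 5.62 in replicate 2. Leaving out 1 array gave 6 to 110 rises and 10 to 364 falls. The 59 early rises lower again at 8 h were 109 with array weights, 14 with a floor of 0.25, 13 without the trend, 0 without scaling and 5 to 91 without 1 array. The 1 early fall that was higher again became 14 with array weights, 13 without the dim arrays of 2 h and 8 h, 9 with quantile normalization, 5 with the 75th percentile, 4 with only the 0, 1 and 8 h arrays, 3 with cyclic loess, 3 with the replicate block, 2 with a filter at a mean log2 of -1 and 0 without scaling, with a floor of 0.25, with no filter or without the trend, and 0 to 4 without 1 array. Higher genes made up 29.7% of calls, against 45.6% with the 75th percentile, 40.2% with loess and 39.0% with quantile normalization. The median of all genes was -0.38 without scaling, where the unequal array medians enter every difference. For the named genes 2571 values kept their side of the threshold, 242 lost the call, 88 gained it, 14 values of genes that had not passed (NOP6, SIP18, HSP12, TPS1, CTT1, ALD3 and ACT1) turned in sign, and 0 of those that had passed did. In other respects the cause was not tested. With 2 arrays per time small changes were not detectable: 53 of the 55 rises and 129 of the 130 falls were at least 2-fold.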
